A study of Mus musculus with 6 samples.

Results

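The genes described here are 8 secreted proteins of the acute phase and of innate antimicrobial defense: Saa3, Saa1, Hp, Cp, Lcn2, Slpi, Lyz2 and Lyz1. They were taken by gene symbol, 8 of the 54446 gene IDs in the table, and were chosen by their counts and ratios in these same 6 libraries, already known. Their levels and ratios are therefore a description, with no test. RNA was sequenced from bone marrow-derived macrophages (BMDMs), which were grown from the marrow of male BALB/c mice, 6 to 8 weeks old, for 7 days in 20% L929-conditioned medium, a source of CSF-1. The cells were left unpolarized (M0), or were polarized for 24 hours with IFN-γ at 20 ng/mL and LPS at 50 ng/mL (M1) or with IL4 at 20 ng/mL (M2). Each state was sequenced after vehicle (DMSO, the control) and after regorafenib, an oral multikinase inhibitor, at 1 µM, which the polarized cells received 1 hour before the cytokines. How long the M0 cells were exposed to it, and how many mice or cultures gave each library, are not given in the sources used here. Each of the 6 conditions was 1 library, so no difference below has a replicate check.

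Acute phase proteins are made in large amounts during inflammation, mainly by hepatocytes under IL-6 and IL-1, through the transcription factors STAT3, C/EBP and NF-κB. Macrophages exposed to bacterial products make several of them as well. Serum amyloid A proteins (Saa1 and Saa3) travel with high density lipoprotein, and in mice Saa3 is the form made outside the liver. Haptoglobin (Hp) captures free hemoglobin, which macrophages then clear through Cd163, and ceruloplasmin (Cp) is a copper-carrying ferroxidase that acts on iron leaving the cell through ferroportin (Slc40a1). Lipocalin 2 (Lcn2) starves bacteria of iron by binding their siderophores. Slpi is a secreted inhibitor of neutrophil elastase and related serine proteases with antibacterial activity of its own. Lysozymes (Lyz2, the form of macrophages, and Lyz1, the form of Paneth cells) cut the bacterial cell wall.

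The bases upstream of Saa3, Saa1 and Slpi are shown because all 3 genes were far higher in M1 than in M0, and Saa1 and Slpi differed at least 2-fold with regorafenib in M1. The sequences are from RefSeq (build GRCm38.p6), run 5′ to 3′ on the strand of the gene, and hold no base of a Gencode exon of the gene. Another Slpi transcript in Gencode begins far upstream, and the Slpi stretch lies in its intron. Capitals mark matches to the 5 motifs searched on both strands, which were NF-kB (GGG, any 5 bases, CC), C/EBP (TTNNGNAA), STAT (TTCNNNGAA), IRF (GAAA, any 2 bases, GAAA) and AP-1 (TGANTCA). Positions are counted back from the gene start that RefSeq gives.
Saa3, chr7:46715701-46715926, minus strand: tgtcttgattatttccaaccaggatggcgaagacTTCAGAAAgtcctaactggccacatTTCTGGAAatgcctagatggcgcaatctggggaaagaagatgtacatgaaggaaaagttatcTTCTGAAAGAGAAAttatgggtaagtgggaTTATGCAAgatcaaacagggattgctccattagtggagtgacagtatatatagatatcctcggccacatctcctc
Saa1, chr7:46742981-46743230, minus strand: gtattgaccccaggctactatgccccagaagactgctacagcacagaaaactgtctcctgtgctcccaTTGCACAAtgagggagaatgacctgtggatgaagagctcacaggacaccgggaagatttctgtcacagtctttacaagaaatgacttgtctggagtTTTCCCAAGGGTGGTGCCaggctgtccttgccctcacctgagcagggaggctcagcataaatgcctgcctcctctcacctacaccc
Slpi, chr2:164356508-164356757, minus strand: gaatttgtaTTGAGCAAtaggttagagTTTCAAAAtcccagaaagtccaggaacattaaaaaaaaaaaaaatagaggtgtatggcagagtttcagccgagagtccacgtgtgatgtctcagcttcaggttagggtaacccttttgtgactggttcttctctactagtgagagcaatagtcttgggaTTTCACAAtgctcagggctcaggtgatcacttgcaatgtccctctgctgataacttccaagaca
Within 250 bases before its start, Saa3 held 4 C/EBP matches and the IRF match GAAAGAGAAA at 125 to 116 bases, which overlaps the C/EBP match at 129 to 122 bases. Saa1 held 2 C/EBP matches and 1 NF-kB match, GGGTGGTGCC at 78 to 69 bases, and the C/EBP match at 86 to 79 bases adjoins it. Slpi held 3 C/EBP matches, the nearest at 64 to 57 bases. Of the other members with an entry, Lcn2 held an NF-kB match at 102 to 93 bases and a C/EBP match at 216 to 209 bases, and Lyz2 and Lyz1 held 1 C/EBP match each. Cp has 2 starts in the table, with a C/EBP and an AP-1 match before the one and an NF-kB and a C/EBP match before the other. No STAT match was found in any of these windows. Unlike the printed stretches, the windows of Lcn2, of Lyz2 and of the Cp start with the NF-kB match hold 197, 49 and 195 bases of Gencode exons of the gene. Over 32817 windows of this length in the table, 36.8% held the C/EBP letters, 45.8% the NF-kB letters, 7.01% the STAT letters, 6.75% the AP-1 letters and 2.97% the IRF letters. A match of these letters is a description of the sequence, not a binding site.

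The libraries held 25359309 to 34898342 counts, and the 10 genes with the most counts took 9.76% to 14.4% of a library. All 9 macrophage markers were above 3 counts in every library, with a summed level of 5226 to 13833 CPM. CPM is the count of a gene per 1000000 counts of the library size after TMM scaling, which sets libraries of different composition on 1 scale. These markers did not go one way. From M0 control to M1 control, Adgre1 went from 635 to 6120 CPM and Cd14 from 1030 to 4019, but Cd68 from 1294 to 348. Mrc1 had only 20 and 9 counts in M1 control and regorafenib. The 5 genes that check the M1 state (Nos2, Il12b, Cxcl9, Cxcl10, Il6) summed to 18478 and 12805 CPM in the M1 libraries and to 2.5 to 16.7 CPM in the others. The lower sum with regorafenib was that of Nos2 (15894 and 9196 CPM), whereas Il12b (393 and 1113 CPM), Cxcl9 (602 and 687), Cxcl10 (142 and 188) and Il6 (1448 and 1621) were higher with it. Intervals below are 95% intervals that cover counting error only. In bulk RNA, fewer cells making a transcript and less RNA per cell cannot be told apart.

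Serum amyloid A3 and the lysozyme of macrophages were among the most abundant transcripts of M1 BMDMs. Saa3 (ENSMUSG00000040026.8, chromosome 7, 46711998 to 46715700, GRCm38) had 199 counts in M0 control, 792 in M0 regorafenib, 826553 in M1 control, 571676 in M1 regorafenib, 139 in M2 control and 176 in M2 regorafenib. Both M1 libraries stood far above the other 4, and Saa3 alone took 2.62% and 2.0% of their counts. Among 54409 genes ranked by CPM per kilobase of exon, it was 4th in M1 control and 5th in M1 regorafenib. Its levels in M0 control (6.48 CPM, interval 5.61 to 7.44) and M2 regorafenib (6.29 CPM, 5.40 to 7.29) did not differ beyond counting error.

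Saa1 (ENSMUSG00000074115.5, chromosome 7, 46740497 to 46742980), the form that the liver secretes into plasma, was detected in M1 and in neither other state. It had 191 counts in M1 control and 12 in M1 regorafenib, or 7.39 CPM (6.38 to 8.52) and 0.498 CPM (0.257 to 0.870). In the 4 libraries of M0 and M2 it had 0 counts, with upper limits of the counting interval of 0.101 to 0.132 CPM. The floor of 3 counts that is used for bounds below was 0.0822 to 0.107 CPM in them. Its near copy Saa2 had 10 and 2 counts in the same M1 libraries and 0 elsewhere, and Saa4 had at most 4 counts in any library. The coding sequences of Saa1 and Saa2 are 95.1% identical, and 8.96% of the 100-base words of Saa1 transcripts are shared with Saa2. How many reads fell in the shared words was not tested. Saa1 and Saa3 are 75.9% identical and share no word of that length.

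Haptoglobin (ENSMUSG00000031722.10, chromosome 8, 109575128 to 109579172) spanned a wide range across the 6 libraries. It had 16 counts in M0 control, 365 in M0 regorafenib, 6489 in M1 control, 1429 in M1 regorafenib, 4 in M2 control and 26 in M2 regorafenib. The order ran from M1 control (251 CPM) over M1 regorafenib (59.3 CPM) and M0 regorafenib (11.1 CPM) down to M2 regorafenib (0.929 CPM), M0 control (0.521 CPM) and M2 control (0.11 CPM). Of these neighbours, M2 regorafenib and M0 control had overlapping counting intervals (0.607 to 1.36 and 0.298 to 0.846 CPM).

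Ceruloplasmin (ENSMUSG00000003617.16, chromosome 3, 19957054 to 20009145) was close to absent outside M1. It had 1 count in M0 control, 11 in M0 regorafenib, 2439 in M1 control, 1609 in M1 regorafenib, 1 in M2 control and 9 in M2 regorafenib. Exons of Cp overlap Hps3, which lies on the opposite strand and had 801 to 1742 counts, highest in M0 regorafenib and lowest in M1 control. Which strand column of the counting tool was deposited is not given in the sources used here, and the part of Hps3 reads in the low Cp counts was not tested.

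Lipocalin 2 (ENSMUSG00000026822.14, chromosome 2, 32384633 to 32388252) had nearly all of its counts in M1. In M0 it had 7 counts in the control and 12 with regorafenib, in M1 32293 and 38099, and in M2 only 6 and 4. The intervals of the 4 libraries outside M1 all overlapped. The M1 levels were 1249.9 CPM in the control and 1581 CPM with regorafenib, and Lcn2 was the only member with its highest level in M1 regorafenib.

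Slpi (ENSMUSG00000017002.14, chromosome 2, 164354070 to 164389095), the protease inhibitor, had 52 counts in M0 control, 283 in M0 regorafenib, 2668 in M1 control, 818 in M1 regorafenib, 13 in M2 control and 87 in M2 regorafenib. Its 6 levels formed an order with no overlap of counting intervals between neighbours. From the highest they were 103 CPM in M1 control, 33.9 in M1 regorafenib, 8.59 in M0 regorafenib, 3.11 in M2 regorafenib, 1.69 in M0 control and 0.356 in M2 control. Slpi holds the microRNA gene Mir7678, which had 0 or 3 counts.

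Lyz2 (ENSMUSG00000069516.8, chromosome 10, 117277331 to 117282321) was the most abundant transcript per kilobase in all 4 libraries of M0 and M2 and the next to highest in both M1 libraries. It had 797716 counts in M0 control, 1408918 in M0 regorafenib, 480906 in M1 control, 493711 in M1 regorafenib, 610104 in M2 control and 767800 in M2 regorafenib, or 1.53% to 4.80% of a library. Its neighbour Lyz1 (ENSMUSG00000069515.6, chromosome 10, 117287797 to 117292868) had 101, 272, 77, 70, 98 and 127 counts in the same order. Both lysozymes had their highest level in M0 regorafenib, and across the 6 libraries they spanned 1.35 (Lyz2) and 1.62 (Lyz1) on the log2 scale, against 8.18 to 13.43 for Hp, Saa3, Slpi, Lcn2 and Cp.

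**Figure D1:**
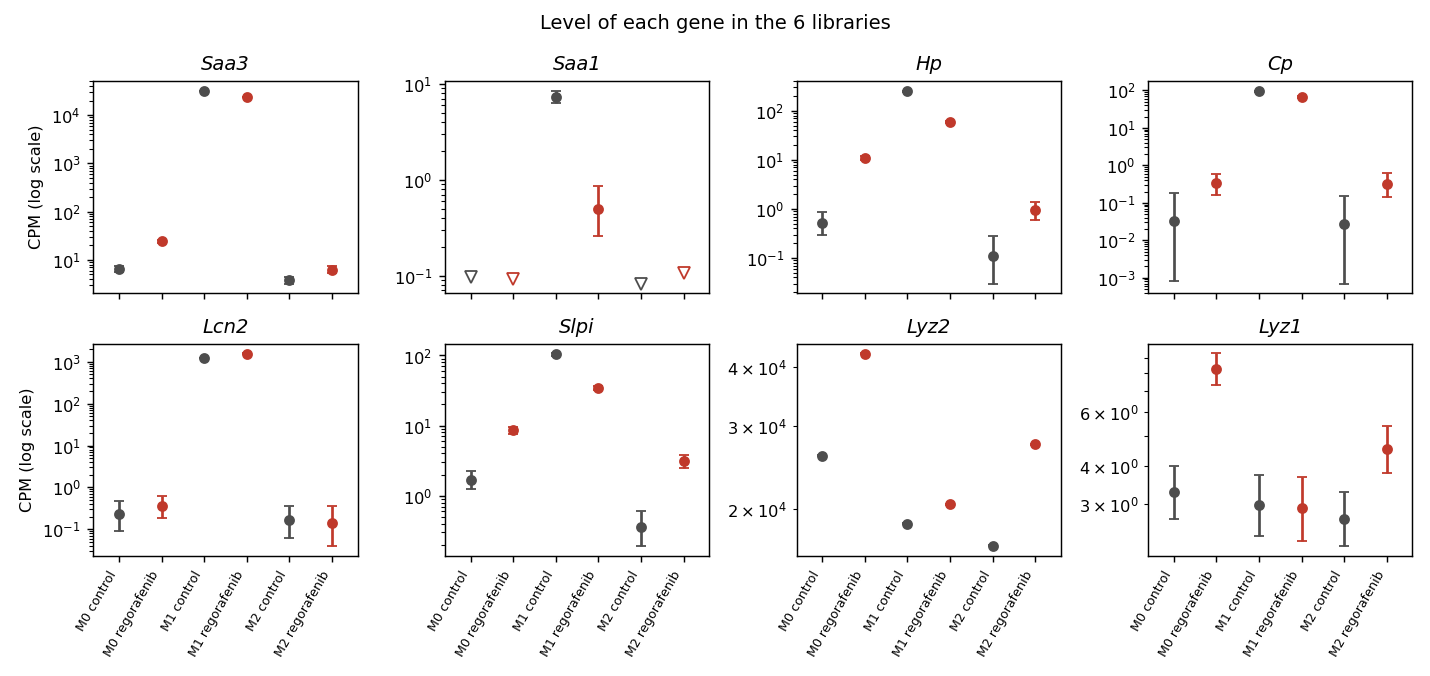
Level of each of the 8 genes (CPM after TMM scaling, log axes that differ between panels) in the 6 libraries, control in gray and regorafenib in red, with bars for the 95% counting interval. Open triangles mark the limit that 0 counts allow for Saa1. Saa3, Saa1, Hp, Cp, Lcn2 and Slpi were highest in the M1 libraries, and Lyz2 and Lyz1 in M0 regorafenib.

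Levels of different genes are compared per kilobase of exon. In M1 control the order was Lyz2 (14144 CPM per kilobase), Saa3 (12276), Lcn2 (477), Hp (156), Slpi (87.5), Cp (9.87), Saa1 (2.98) and Lyz1 (2.36), of which Saa1 and Lyz1 did not differ beyond counting error by this length. In M0 control it was Lyz2 (19733), Lyz1 (2.60), Saa3 (2.49), Slpi (1.43), Hp (0.324), Lcn2 (0.0869) and Cp (0.00340), with Saa1 at 0, and there Lyz1 and Saa3 did not differ beyond counting error by this length. The place of Saa3, and the distance between Saa1 and Lyz1, depended on the transcript taken for the length. Per kilobase of the principal transcript, a choice made after seeing the data, Saa3 stood at 57641 and Lyz2 at 14144 CPM in M1 control, which turns their order, and Saa1 stood at 12.1 and Lyz1 at 2.36.

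The comparison of M1 with M0 without regorafenib asks how these genes respond to IFN-γ and LPS. Of the 8 members, all had at least 10 counts in a library, and 6 were at least 2-fold higher in M1, whereas 17.4% of the 14168 genes with that depth were at least 2-fold higher and 19.7% lower. Lcn2 (log2 ratio 12.42, interval 11.38 to 13.74) and Saa3 (12.27, 12.07 to 12.48) had the 11th and 13th highest ratios of all these genes, 5485-fold and 4938-fold. Cp followed in place 17 with 11.50, but its interval of 9.02 to 16.81 is wide since it rests on 1 count in M0 control. Haptoglobin and the protease inhibitor had smaller ratios. Hp was 482-fold higher (8.91, 8.21 to 9.72) and Slpi 61.0-fold higher (5.93, 5.54 to 6.36). Saa1, with 0 counts in M0 control, was at least 75.7-fold higher against a floor of 3 counts in that library. Its counting interval reached lower, to a log2 ratio of 5.93. The lysozymes went the other way or stayed near 0, with a log2 ratio of −0.48 for Lyz2 (−0.49 to −0.48) and −0.14 for Lyz1 (−0.59 to 0.30). When libraries were scaled by their total counts, the median of all genes in this comparison moved by −0.44, and the ratios of Lyz2 and Lyz1 moved with it to −0.92 and −0.58.

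M2 gave a different picture. M2 control is set against the M0 control library that also serves the M1 comparison. Of the 5 members with at least 10 counts in M0 or M2 control, Hp and Slpi were at least 2-fold lower in M2, where 7.61% of 13830 genes were lower and 4.69% higher by that measure. Hp went from 16 to 4 counts and Slpi from 52 to 13, so that both had a log2 ratio of −2.25, with intervals of −4.29 to −0.62 and −3.25 to −1.35. With 1 CPM added to both values the ratios were −0.45 and −0.99, and no member then reached 2-fold. Saa3 (−0.77), Lyz2 (−0.64) and Lyz1 (−0.29, −0.71 to 0.12) were lower by less than 2-fold or not beyond counting error. Lcn2 with 7 and 6 counts and Cp with 1 and 1 were too low to compare, and Saa1 had 0 counts in both.

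Treated and control libraries were first compared in unpolarized M0 BMDMs. Hp, Slpi, Saa3, Lyz1 and Cp, 5 of the 7 members with at least 10 counts, were at least 2-fold higher with the drug and none was lower. Over all 13964 genes of that depth, 9.47% were at least 2-fold higher and 10.9% lower. Hp had a log2 ratio of 4.41 (3.69 to 5.23), a 21.3-fold difference and the 21st highest of these genes. Slpi was 5.07-fold higher (2.34, 1.91 to 2.80) and Saa3 3.71-fold higher (1.89, 1.66 to 2.12). For each of these 3 genes the counting intervals of the treated and the control library lay apart. Lyz1 was 2.51-fold higher (1.33, 0.99 to 1.67), whereas Lyz2 was 1.65-fold higher (0.72, 0.71 to 0.72), below the 2-fold mark. Cp went from 1 to 11 counts, a ratio of 10.3 with a log2 interval of 0.58 to 8.79, and its log2 ratio of 3.36 was 0.37, under 2-fold, with 1 CPM added. Lcn2, with 7 and 12 counts, did not differ beyond counting error (0.68, −0.79 to 2.26).

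In M1 BMDMs the ratios of several members pointed the other way. Here 3 of 8 members, Saa1, Hp and Slpi, were at least 2-fold lower with regorafenib and none was higher, where 3.46% of 13440 genes were lower and 1.76% higher by that measure. Saa1 was 14.8-fold lower (log2 ratio −3.89, −4.87 to −3.05), the 8th lowest of all these genes. Hp was 4.24-fold lower (−2.08, −2.17 to −2.0) and Slpi 3.04-fold lower (−1.61, −1.72 to −1.49). All 3 genes were still higher in treated M1 BMDMs than in any library of M0 or M2. Cp (−0.50, −0.59 to −0.41) and Saa3 (−0.43, −0.44 to −0.43) were lower by less than 2-fold, which for Saa3 still was a difference of 31991 against 23720.3 CPM. Lcn2 was 1.26-fold higher (0.34, 0.32 to 0.36) and Lyz2 1.10-fold higher (0.14, 0.13 to 0.14). Lyz1 did not differ beyond counting error (−0.04, −0.53 to 0.45), and the sign of its ratio changed with the scaling.

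In M2 BMDMs, 2 of the 5 members with at least 10 counts were at least 2-fold higher with regorafenib and none was lower, where 6.15% of 13813 genes were higher and 5.07% lower. Slpi went from 13 to 87 counts (log2 ratio 3.13, 2.28 to 4.09) and Hp from 4 to 26 counts (3.08, 1.56 to 5.06), the 45th and 47th highest ratios. With 1 CPM added to both values, the ratio of Hp was 0.80, under the 2-fold mark. Lyz1 (0.76, 0.37 to 1.15), Saa3 (0.72, 0.40 to 1.06) and Lyz2 (0.72, 0.71 to 0.72) lay between 1.64-fold and 1.69-fold, with intervals above 0. In M2 regorafenib, Hp, Slpi, Saa3, Lyz2 and Lyz1 were each below their level in M0 regorafenib. Cp, with 1 and 9 counts, had a log2 ratio of 3.55 with an interval of 0.70 to 9.01 and stayed under the depth of 10 counts. Lcn2 had 6 and 4 counts (−0.20, −2.47 to 1.88).

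**Figure D2:**
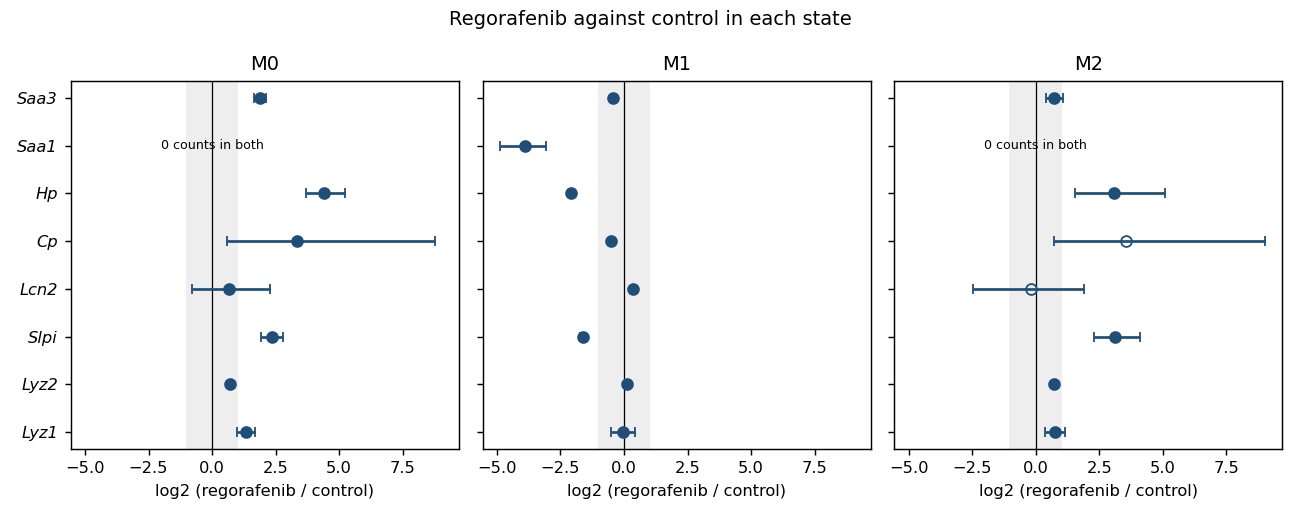
Log2 ratio of regorafenib to control for each gene in M0, M1 and M2, with the 95% counting interval as bars, 1 library each. Open points had fewer than 10 counts in both libraries, and the gray band marks less than 2-fold. Hp and Slpi lie right of the band in M0 and M2 and left of it in M1.

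Hp and Slpi were thus at least 2-fold higher with regorafenib in M0 and M2 and at least 2-fold lower in M1. Of 12752 genes that reached 10 counts in both states, 0.345% were at least 2-fold higher in M0 and lower in M1, and of 12656 such genes 0.292% were higher in M2 and lower in M1. The log2 ratio of Hp in M1 was below that in M0 by 6.49 and below that in M2 by 5.17, and that of Slpi by 3.95 and 4.73. These differences were not tested, since each ratio comes from 1 pair of libraries. Without regorafenib the Hp levels of M1 and M0 were 251 and 0.521 CPM, and with it 59.3 and 11.1 CPM, so the treated libraries lay closer together. For Slpi the levels were 103 and 1.69 CPM without and 33.9 and 8.59 CPM with the drug.

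M1 and M0 can also be compared among the regorafenib libraries alone. All 8 members were at least 2-fold different between M1 and M0 with regorafenib, 6 higher and 2 lower, where 16.3% of 14159 genes were higher and 21.6% lower. The log2 ratio of M1 to M0 was 12.08 for Lcn2, against 12.42 without the drug. It was 9.95 for Saa3 (987-fold), 7.64 for Cp (200-fold), 2.42 for Hp (5.35-fold) and 1.98 for Slpi (3.95-fold), each lower than without the drug. Saa1 was at least 5.47-fold higher against a floor of 3 counts in M0 regorafenib, and its counting interval reached lower, to a log2 ratio of 1.93. Lyz1 (−1.51) and Lyz2 (−1.06) were lower in M1, and the ratio of Lyz2 was −0.99 with DESeq2 size factors. In the regorafenib libraries of M2 and M0, Hp (−3.57, −4.21 to −3.0), Saa3 (−1.93), Slpi (−1.46) and Lcn2 (−1.35, −3.44 to 0.37, from 12 and 4 counts) were at least 2-fold lower in M2, where 5.18% of 13841 genes were lower and 4.41% higher. Lyz1 (−0.86), Lyz2 (−0.64) and Cp (−0.05, −1.5 to 1.36) were not. Since the 4 polarization ratios and the 3 drug ratios of a gene share libraries, they are shown side by side and are not independent of each other.

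**Figure D3:**
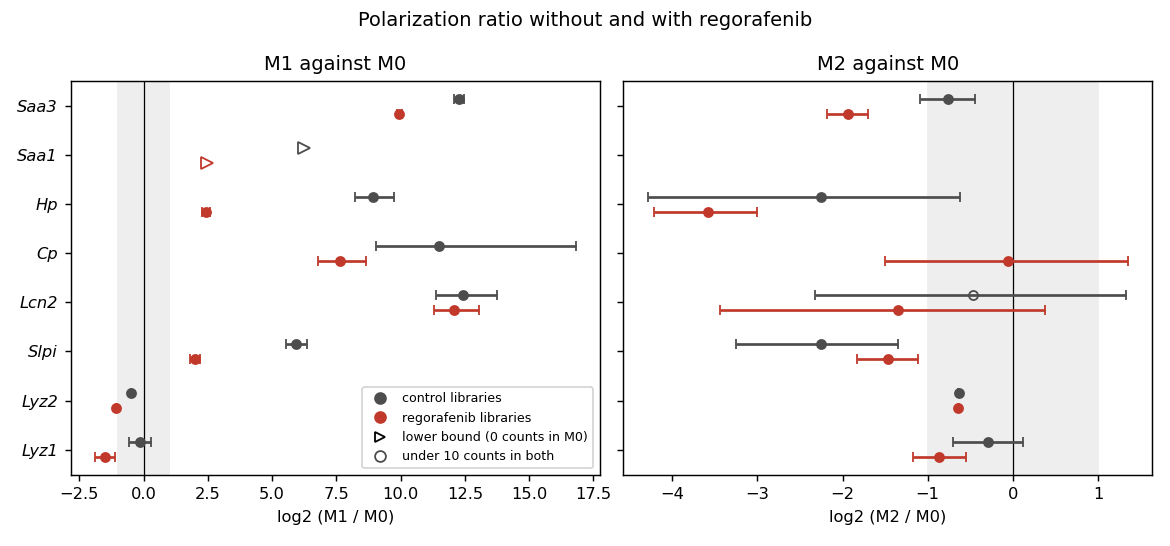
Log2 ratio of M1 to M0 (left) and of M2 to M0 (right; the axes differ) among the control libraries in gray and among the regorafenib libraries in red, with the 95% counting interval as bars. Triangles give the lower bound for Saa1, and the gray band marks less than 2-fold. For Hp, Slpi, Saa3 and Cp the M1 ratio was lower among the regorafenib libraries, and for Lcn2 the intervals of both ratios overlap.

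The lysozyme genes lie side by side and are near copies, so their counts have to be read together. Their coding sequences are identical at 422 of 444 bases, and of all 100-base words 2.06% of Lyz1 and 1.97% of Lyz2 are shared between them. The coding bases 1 to 90 (Gencode M21, 5′ to 3′) are printed because they show how few positions tell the copies apart, with the 7 bases that differ in capitals.
Lyz1: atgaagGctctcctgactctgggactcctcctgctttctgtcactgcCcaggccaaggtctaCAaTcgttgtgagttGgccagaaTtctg
Lyz2: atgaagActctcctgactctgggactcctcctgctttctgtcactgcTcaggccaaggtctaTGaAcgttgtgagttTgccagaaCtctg
Per 10000 counts of both genes, Lyz1 took 1.27 (exact interval 1.03 to 1.54) in M0 control and 1.93 (1.71 to 2.17) in M0 regorafenib. In M1 it took 1.60 (1.26 to 2.0) in the control and 1.42 (1.11 to 1.79) with the drug, and for M2 the shares were 1.61 (1.30 to 1.96) and 1.65 (1.38 to 1.97). The share was therefore small in each library and differed beyond counting error between control and regorafenib in M0 only. How many Lyz1 counts came from reads of Lyz2 was not tested.

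**Figure D4:**
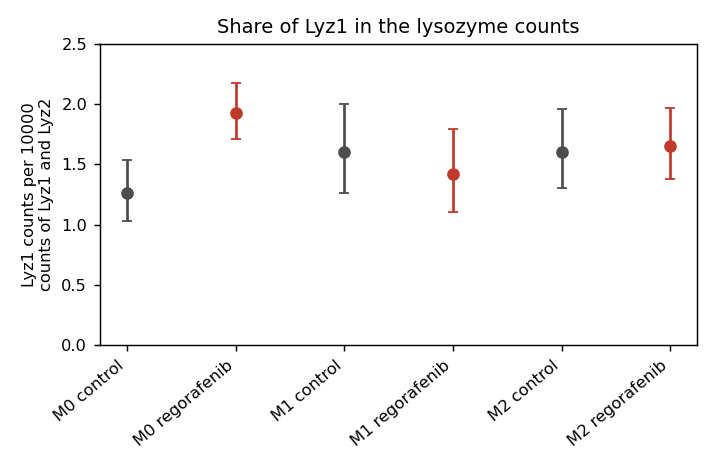
Counts of Lyz1 per 10000 counts of Lyz1 and Lyz2 together in the 6 libraries, control in gray and regorafenib in red, with exact 95% intervals. The share ran from 1.27 in M0 control to 1.93 in M0 regorafenib, the only pair of a state whose intervals do not overlap.

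Related genes were followed in 5 lists written with results of these libraries known. They are other acute phase proteins (32 genes), other granule and secreted antimicrobial proteins (28), the inducing cytokines with their receptors (20), transcription factors with feedback regulators (21), and receptors and partners of the secreted proteins (21). In M1 against M0 without regorafenib, 10 of 12 acute phase genes with at least 10 counts were at least 2-fold higher and 1 lower, with a median log2 ratio of 4.49 against −0.05 for all genes, of which 17.4% were higher and 19.7% lower. The serine protease inhibitor genes Serpina3f and Serpina3g went from 1 to 251 counts (8.22, 5.73 to 13.53) and from 7 to 942 counts (7.32), the complement component C3 from 1972 to 110062 counts (6.05), and the metal-binding Mt2 from 382 to 6841 (4.41). Of 16 granule and antimicrobial genes, 12 were higher and 2 lower (median 4.05). Nos2, the inducible nitric oxide synthase, went from 39 to 410649 counts (13.61) and Acod1, which makes itaconate, from 1085 to 163628 (7.49). Wfdc21 and the cathelicidin gene Camp went from 0 to 118 and 108 counts, at least 46.8-fold and 42.8-fold higher against a floor of 3 counts in M0 control. Of 20 inducers and receptors, 13 were higher and 2 lower (median 1.92). Among the higher were Il6 from 5 to 37404 counts (13.12), Il1a from 41 to 283382, Il1b from 95 to 609592 (12.90) and the antagonist Il1rn from 1227 to 47283 (5.52). The lower ones were the receptor genes Il6st, from 3853 to 1443 counts, and Tlr4, from 4854 to 1934. Of 21 transcription factors and regulators, 14 were higher and 3 lower (median 2.02), with Socs3, the feedback inhibitor of STAT3 signaling, from 159 to 23535 counts (7.46). Nfkbiz, an NF-κB cofactor of acute phase and antimicrobial genes such as Lcn2, went from 322 to 6053 counts (4.48), the RNase Zc3h12a from 506 to 6163 (3.86), the NF-κB inhibitor Nfkbia from 2871 to 27604 (3.51) and Cebpb from 1015 to 4904 (2.52). The lower ones were Cebpa, from 1744 to 187 counts, Fos, from 2268 to 913, and Cebpe, from 73 to 28 (named after its value was seen). Among the 16 receptors and partners 5 were higher and 4 lower (median −0.60). The formyl peptide receptors Fpr1 and Fpr2, the second of which also binds serum amyloid A, went from 8 to 10089 counts (10.55) and from 39 to 20337 (9.28), and the heme oxygenase Hmox1 from 19640 to 86691 (2.39), whereas the scramblase gene Plscr4 went from 1139 to 32 (−4.90).

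In M2 against M0, where 4.69% of all genes were at least 2-fold higher and 7.61% lower (median 0.01), the lists had members on both sides. There were 1 higher and 3 lower of 8 acute phase genes (median −0.03) and 3 higher and 4 lower of 13 granule genes (median 0.02). The inducers had 3 higher and 4 lower of 19 (median 0.10), the transcription factors 3 and 3 of 21 (median −0.13) and the receptors and partners 2 and 3 of 15 (median −0.14). Lower ones were Ambp, the precursor of a heme-binding plasma protein, from 163 to 23 counts (−3.07), the LPS co-receptor Cd14 from 31650 to 9888 (−1.93), Acod1 (−3.10), the collagenase Mmp8 (−1.39), the receptor Tlr2 (−2.81), Tnf (−2.35), Nfkbiz from 322 to 88 counts (−2.12) and the iron exporter Slc40a1 (−1.70). Higher ones were Chil3, a chitinase-like protein, from 0 to 379 counts, at least 106-fold against the same floor, the ribonuclease Rnase4 from 3456 to 11632, the cytokine receptor subunit Il6st (1.10), Cebpa (1.62), Atf3 (1.54) and Fosl2 (1.27), the fatty acid receptor Cd36 (2.39) and the transferrin receptor Tfrc (2.20).

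With regorafenib in M1, where Saa1, Hp and Slpi were lower, 4 of 13 acute phase genes were at least 2-fold lower and none higher (median −0.25 against −0.02 for all genes, of which 3.46% were lower and 1.76% higher). The metallothionein genes were 2 of them, Mt2 from 6841 to 2330 counts (−1.45) and Mt1 from 5697 to 2348 (−1.18). Of 15 granule genes 2 were lower and 1 higher (median −0.15), the lower ones being S100a8, a calcium-binding antimicrobial protein, from 1804 to 489 counts (−1.78) and Mmp8 from 1359 to 584 (−1.12). Of 20 inducers and receptors 2 were lower (median 0.05), with the IL-1 receptor Il1r1 from 154 to 48 counts (−1.58). The inducing cytokines themselves were within 2-fold, at 37404 and 39074 counts for Il6 (0.16) and 609592 and 595706 for Il1b (0.07). Of 21 transcription factors and regulators 1 was lower, Cebpe from 28 to 2 counts (named after its value was seen), and the median was −0.01. None of 16 receptors and partners passed 2-fold (median −0.22).

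With regorafenib in M0, 3 of 8 acute phase genes were higher and 2 lower (median −0.14 against 0.00 for all genes, of which 9.47% were higher and 10.9% lower). C3 was higher (1972 to 4451 counts, 1.07) and Ambp (163 to 10, −4.13) and Cd14 (31650 to 16464, −1.04) lower. Of 12 granule genes 1 was higher and 1 lower (median 0.57), the higher being Cybb, the catalytic subunit of the phagocyte oxidase (9026 to 38857 counts, 2.0). The inducers had 5 higher and 4 lower of 19 (median 0.14), with Il1rn (−2.85) and Tnf (−1.81) lower and the TNF receptor Tnfrsf1b (1.51), Tlr2 (1.11) and the interferon-γ receptor Ifngr1 (1.08) higher. The transcription factors had 3 higher and 3 lower of 21 (median 0.17), with Relb (1.23), Cebpd (1.14) and Cebpa (1.13) higher and Fos (−1.71) lower. The receptors and partners had 4 higher and 3 lower of 17 (median −0.18), with Slc40a1 from 235 to 1764 counts (2.81) and Tlr2 higher, and Cd36 (−1.29), Anxa2 (−1.25) and the scavenger receptor Lrp1 (−1.02) lower (Ifngr1 and Lrp1 were named after their values were seen). In M2 the acute phase list had 3 higher and 2 lower of 8 (median 0.07 against −0.03 for all genes, of which 6.15% were higher and 5.07% lower), the granule list 5 and 0 of 15 (median 0.51), the inducers 3 and 4 of 19 (median 0.16), the transcription factors 2 and 1 of 21 (median 0.06) and the receptors and partners 3 and 4 of 15 (median 0.04). C3 (1964 to 8861 counts, 2.56) and Cybb (4757 to 17421, 2.26) were again among the higher ones, with Acod1 (2.26), Chil3 (1.22), Tlr2 (1.80), Tnfrsf1b (1.37), Relb (1.80), Nfkbiz (1.14) and Slc40a1 (1.82). Mt2 (−1.02), Il1rn (−1.68), Osm (−1.16), Cd36 (−1.91) and Hmox1 (−1.30) were among the lower ones.

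**Figure D5:**
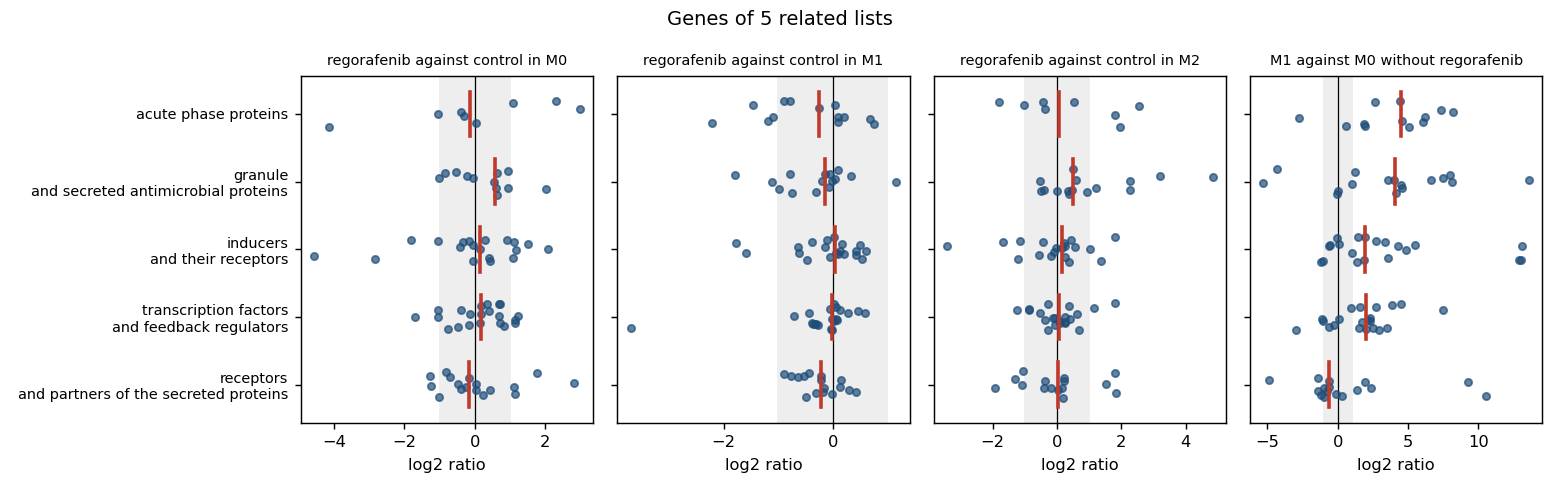
Log2 ratios of the genes of 5 related lists with at least 10 counts, for regorafenib against control in M0, M1 and M2 and for M1 against M0 without the drug (axes differ). Each point is a gene, the red bars are list medians and the gray bands mark less than 2-fold. In M1 against M0 the medians of the upper 4 lists lie between 1.92 and 4.49.

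Several members are also products of neutrophils and of liver, so markers of other cells were read beside them. Of 13 markers of neutrophils and their precursors, 4 to 6 were above 3 counts, and they summed to 117 and 272 CPM in M0 control and regorafenib, 246 and 183 CPM in M1 control and regorafenib, and 108 and 212 CPM in the M2 pair. The genes behind these sums did not go one way. Mpo had 80.7 and 155 CPM in M0, 83.0 and 85.6 CPM in M1, and 87.0 and 130 CPM for M2, and Csf3r had 6.93 and 64.3 CPM, 36.0 and 49.3 CPM, and 8.85 and 65.1 CPM in the same order. Csf3r was higher with regorafenib in each state and Mpo in M0 and M2, whereas Mpo in M1 did not differ beyond counting error. S100a8, at 4.0 and 2.76 CPM, 69.8 and 20.3 CPM, and 1.86 and 1.39 CPM, was lower with it in M0 and M1 and did not differ beyond counting error in M2. In M2 S100a9 went from 0 to 11 counts, at least 4.79-fold higher against a floor of 3 counts in the control, and Cxcr2 from 6 to 18 (log2 ratio 1.97). Mmp8, at 25.6 and 48.8 CPM, 52.6 and 24.2 CPM, and 9.81 and 14.0 CPM, had the signs of Hp and Slpi. The defining markers Ly6g and Retnlg were at 0 in all 6 libraries, and Elane, Ltf and Ngp had at most 2 counts, whereas Camp had 108 and 91 counts in M1 control and regorafenib and at most 1 in the other 4 libraries. Alb and Ttr, which hepatocytes make in bulk, were at 0 in all 6, and the 7 markers of epithelium and hepatocytes summed to 2.5 to 10.99 CPM. Afp, the fetal albumin-like protein, made up most of these sums, with 259 and 80 counts in M0 control and regorafenib (log2 ratio −1.80), 280 and 225 counts for the M1 pair and 151 and 68 counts for the M2 pair. The 6 fibroblast markers summed to 3.19 and 10.2 CPM in the M0 control and the treated library, and to 9.10 and 6.85 CPM in those of M1 and 3.56 and 5.76 CPM in those of M2. Of 5 lymphocyte markers none exceeded 3 counts, and the 7 dendritic cell markers summed to 0.485 to 38.8 CPM, highest in the M1 libraries. Ccr7 made up most of the sums of M1 control and regorafenib, with 30.2 of 32.0 and 34.3 of 38.8 CPM. Xcr1 had 36 and 102 counts there, whereas Flt3, Clec9a, Cd209a and Siglech had at most 3. The part of any of these other cells in the ratios of Hp and Slpi was not tested.

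The genes most like each member were found among 11313 others that reached 100 counts in some library, by the root mean square difference of their centered log2 levels over the 6 libraries, where 0 is an identical pattern. Lcn2 was nearest to Il6 (0.150), Ccl5 (0.181) and Cxcl3 (0.183), and the same 3 genes were nearest to Saa3, at 0.776 to 0.797. Hp had Thbs1 (0.853), Vegfa (0.857) and C1s1 (0.933), and Slpi had Cybb (0.501), Abca1 (0.519) and C1s1 (0.568), so that neither had a close match. Thbs1 went from 62 to 334 counts with regorafenib in M0, from 6648 to 4275 in M1 and from 82 to 113 in M2. Saa1 was nearest to Gm43181 (0.312), Tmem119 (0.377) and Cited1 (0.421), and Cp to Zfp811 (0.186), Gipr (0.302) and Cfb (0.319). Lyz1 was nearest to Rsph9 (0.0654), Tmem191c (0.0906) and St8sia4 (0.0984), and Lyz2 to Hspa2 (0.0855), Lrp4 (0.0922) and Amt (0.0973). Among the members the nearest pairs were Lyz1 with Lyz2 (0.158), Saa3 with Lcn2 (0.764) and Hp with Slpi (0.965). These likenesses rest on 6 libraries and were not tested.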

How the data were processed

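RNA of BMDMs in 6 conditions was sequenced with a stranded mRNA kit, 1 library per condition. The authors trimmed the reads with cutadapt 2.4, aligned them to GRCm38 with STAR 2.7.2a and deposited STAR's raw counts per gene on Gencode M19. The strand column taken is not given in the sources used here. Of 54446 gene IDs, 53229 matched Gencode M21 with their version, 1180 without it and 37 not.

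The counts were scaled with TMM (edgeR 4.0.16, R 4.3.3) over all 6 libraries, with factors of 0.820 to 1.12. Log2 ratios used 0.5 in place of a count of 0, and their intervals are exact conditional binomial. With 1 library a group no test was made; a gene with at least 10 counts in a library of the comparison was called when it differed at least 2-fold. Folds against 0 counts are bounds at 3 counts per library, and against 1 to 3 counts they are given as ratios with the counting interval, which departs from the wording fixed for this step. These bounds leave out the counting error of the other library. NOISeq, which the authors used, was not, since it rests on simulated replicates. The ratios and their intervals were tested on simulated counts with known fold changes and counting error only. That test cannot show variation between cultures. Levels between genes are per kilobase of merged exons.

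All 8 members are named, and for each the 3 nearest genes by log2(CPM + 0.5). Of each list, called genes with at least 100 counts were named, in each comparison the 4 with the largest ratios, together with genes that the background needs. The members and lists were chosen with earlier results of these data known. Upstream sequences and motif counts are from RefSeq (GRCm38.p6), where Saa3, Saa1, Slpi, Lcn2, Cp, Lyz1 and Lyz2 had an entry, and coding sequences from Gencode M21. Alternatives were DESeq2 size factors (DESeq2 1.42.0), total counts, upper quartile, 1 CPM added, folds of 1.5 and 4, other count minima and other transcript lengths. A marker check of the M2 libraries is not reported here. Scripts ran in Python 3.11.15 with scipy 1.17.1.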

Additional observations from a re-analysis of the deposited data

Results flagged for a closer look

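For 4 members the ratio of regorafenib to control had opposite signs in M1 and in the other states, with counting intervals that leave out 0 on both sides. For Hp the log2 ratio in M1 minus that in M0 was −6.49, and that in M2 minus that in M1 was 5.17. For Slpi these values were −3.95 and 4.73, for Cp −3.86 and 4.05, and for Saa3 −2.32 and 1.16. The difference was not tested for any of them, since each ratio comes from 1 library per condition. Those of Cp rest on 1 count in each of the M0 and M2 controls, and the M1 ratios of Cp and Saa3 were within 2-fold.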

How the results depend on the processing

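No paired analysis was possible because each condition was 1 library and the labels carry no replicate number, and for the same reason no replicate could be left out. No member ratio that was called turned its direction under DESeq2 size factors, total counts, upper quartile scaling or 1 CPM added. Of 51 member ratios, 43, 36, 43 and 32 stayed within their counting interval under these 4 settings. Total counts moved the median of all genes by −0.44 in M1 against M0 without regorafenib and by −0.41 with it, and the upper quartile by 0.14 without it. Low counts limit the ratios, since adding 1 CPM by its construction pulls those of low genes toward 0. With it, the log2 ratios of Cp in M0 (0.37), of Hp in M2 (0.80), of Hp (−0.45) and Slpi (−0.99) in M2 against M0 without regorafenib, and of Saa1 in M1 (0.58) and Lcn2 in M2 (−0.26) against M0 with regorafenib fell under 2-fold. The members called then numbered 1 in place of 2 for regorafenib in M2 and 0 in place of 2 for M2 against M0 without it, where 4.09% and 5.64% of all genes were called. A threshold of 4-fold called 3 members in place of 5 for regorafenib in M0, 5 in place of 8 for M1 and 1 in place of 4 for M2 against M0 with regorafenib, beside 5.34%, 18.4% and 2.54% of all genes. A threshold of 1.5-fold called 5 for regorafenib in M2 and 4 for M2 against M0 without it, beside 25.3% and 23.7%. Of the listed genes, 10 were called for regorafenib in M1, 5 with 1 CPM added and 22 with no filter on low counts, and for regorafenib in M2 26 and, with 1 CPM added, 15. Over all genes 19.7% to 44.2% were called with no filter on low counts and 1.77% to 32.4% with at least 100 counts, depending on the comparison. The order of members per kilobase changed in 6 places over the 6 libraries with the longest transcript and in 13 with the principal transcript, which was chosen after seeing the data.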

Other observations

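Of the receptors and partners of the secreted proteins, Cd163, the receptor of the haptoglobin and hemoglobin complex, was low throughout, with 77 and 59 counts in M0 control and regorafenib, 29 and 20 in M1, and 69 and 62 in M2. Scarb1, a receptor of high density lipoprotein, went from 4481 to 1406 counts in M1 against M0 without regorafenib (log2 ratio −1.42). Slc40a1 had 235 and 240 counts in M0 and M1 control (0.28).

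Of the 4 listed genes named for the WAP domain that Slpi carries, Wfdc2 had at most 1 count in any library, and Wfdc18 went from 4 to 40 counts in M1 against M0 without regorafenib and had 84 in M1 regorafenib. Wfdc17 went from 1364 to 18117 counts (3.98), with 21407 in M1 regorafenib. Wfdc21 and Camp had 66 and 91 counts in M1 regorafenib. Rnase4 was lower in M1, from 3456 to 74 counts (−5.30), and had 11632 counts in M2 control. Wfdc2, Wfdc17, Wfdc18, Scarb1 and, for M1, Rnase4 were named after their values were seen.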
